A study of Mus musculus with 30 samples.

Results

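The 10 genes described here are the receptors for glucocorticoid hormones and a set of genes that those hormones are known to induce: the receptors Nr3c1 and Nr3c2, and the response genes Fkbp5, Sgk1, Tsc22d3, Errfi1, Zbtb16, Arrdc2, Pdk4 and Plin4. They were chosen by name from a table of 49315 gene identifiers, and all 10 were among the 16486 genes that passed the filter on low counts. Their levels were measured by bulk RNA-sequencing of hippocampi from 30 mice on the C57BL/6J strain: 6 male and 7 female mice lacking TIMP2 (TIMP2 KO), and 10 male and 7 female wildtype (WT) mice. The KO line came from the Jackson Laboratory, controls were littermates, and heterozygous mice were not used. The study's methods give age ranges for its mice in general, but the age of each sequenced mouse and its day and hour of harvest were not given in the sources used here, and the labels name no treatment. The comparisons were TIMP2 KO against WT, female against male, the interaction of sex and genotype, and the covariation of the genes across mice.

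Corticosterone, the main glucocorticoid of mice, enters brain cells and binds the mineralocorticoid receptor (encoded by Nr3c2) with high affinity and the glucocorticoid receptor (encoded by Nr3c1) with lower affinity. The hippocampus is known for holding both receptors. The bound receptor moves to the nucleus and attaches to DNA at glucocorticoid response elements, which are pairs of short motifs facing each other, and nearby genes such as Fkbp5, Sgk1 and Tsc22d3 are then transcribed. FKBP5 protein in turn binds the receptor complex and lowers its affinity for hormone.

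Each library held between 18345517 and 41081083 counted reads for TIMP2 KO and between 19445246 and 32098386 for WT. The labels were checked on Timp2 itself: its level in CPM, counts scaled to library size, ran from 130 to 171 in TIMP2 KO and from 256 to 380 in WT, with no overlap, at a log2 fold change of -0.999 (SE 0.05; adjusted p = 7.62e-16, edgeR). Markers of hippocampal neurons were present in every mouse, with a summed level between 863 and 1051 CPM over 7 genes. In bulk tissue, fewer cells of a type and less RNA per cell cannot be told apart.

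The promoter sequences are shown for Sgk1 and Tsc22d3, since this pair had the highest Pearson's r of the 45 pairs described below when all 30 mice were used. RefSeq windows on GRCm38.p6, each from 250 bases before to 50 bases after a transcript start, were found for 8 of the 10 genes, 16 windows in all. They were searched on both strands for the hexamer TGTTCT and for ACANNNTGT, the core of a paired element. A paired element was counted where the second base before the core was G and the second base after it was C. The Sgk1 window at chr10:21993640-21993939 (plus strand) starts from one of 6 annotated Sgk1 starts and lies inside the gene as GENCODE release M21 draws it. The Tsc22d3 window is at chrX:140600473-140600772 (minus strand), 1 of 3 for that gene. Capitals mark hexamers and paired elements:
Sgk1: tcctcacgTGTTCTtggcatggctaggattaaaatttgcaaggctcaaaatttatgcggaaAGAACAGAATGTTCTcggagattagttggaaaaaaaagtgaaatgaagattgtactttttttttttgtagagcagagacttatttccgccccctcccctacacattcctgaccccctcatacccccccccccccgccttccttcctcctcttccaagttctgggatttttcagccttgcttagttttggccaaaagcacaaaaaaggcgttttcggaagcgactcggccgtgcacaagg
Tsc22d3: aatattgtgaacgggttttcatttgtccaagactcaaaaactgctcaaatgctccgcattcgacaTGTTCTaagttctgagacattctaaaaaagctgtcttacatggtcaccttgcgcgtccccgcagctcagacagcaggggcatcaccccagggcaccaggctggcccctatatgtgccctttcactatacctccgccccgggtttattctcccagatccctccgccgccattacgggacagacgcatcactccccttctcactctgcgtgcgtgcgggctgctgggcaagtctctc
The Sgk1 window held 3 hexamers and 1 paired element, with its core at position -186 from the start, and 2 of the hexamers overlap that same element. The Tsc22d3 window held 1 hexamer, at position -185, and no core. No other Sgk1 window held a paired element and no other Tsc22d3 window held a hexamer. The printed windows therefore do not stand for the other windows of these genes. Of the 16 windows, 4 held the hexamer, 2 the core and 1 a paired element. Over all 32851 windows of mouse genes, 19% held the hexamer, 6.85% the core and 0.475% a paired element. No hexamer or core was found in the windows of Fkbp5, Pdk4, Plin4, Nr3c2, Errfi1 and Arrdc2, which says only that these letters are not in those windows. Zbtb16 and Nr3c1 were not matched.

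By mean level the receptors were the most abundant of the 10 transcripts. Scaled to exon length (RPKM, CPM per kilobase of merged exons), Nr3c2 had a mean level of 39.0 ± 3.07 (SD, n = 30) and Nr3c1 of 16.0 ± 0.644. Their ranges, 34.6 to 45.4 for Nr3c2 and 14.8 to 17.5 for Nr3c1, did not overlap, so Nr3c2 lay above Nr3c1 in all 30 mice. Below them came Sgk1 (13.03 ± 2.49), Errfi1 (11.6 ± 1.34), Tsc22d3 (10.6 ± 1.78) and Zbtb16 (9.95 ± 1.07), and the ranges of neighbours in this order overlapped. Fkbp5 followed at 7.85 ± 0.750, with a range that overlapped that of Zbtb16 but not that of Pdk4 (3.31 ± 0.430). Arrdc2 (2.45 ± 0.359) overlapped Pdk4, and Plin4 was lowest at 0.230 ± 0.135 RPKM, with between 9 and 117 counts per mouse.

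The receptors were also the steadiest from mouse to mouse. The coefficient of variation of CPM over the 30 mice was 4.03% for Nr3c1 and 7.88% for Nr3c2. It was 9.56% for Fkbp5, 10.7% for Zbtb16 and 11.5% for Errfi1, then 12.99% for Pdk4, 14.7% for Arrdc2, 16.9% for Tsc22d3 and 19.1% for Sgk1. Plin4 had 58.9%, part of which is counting error at a median of 31 counts.

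**Figure D1:**
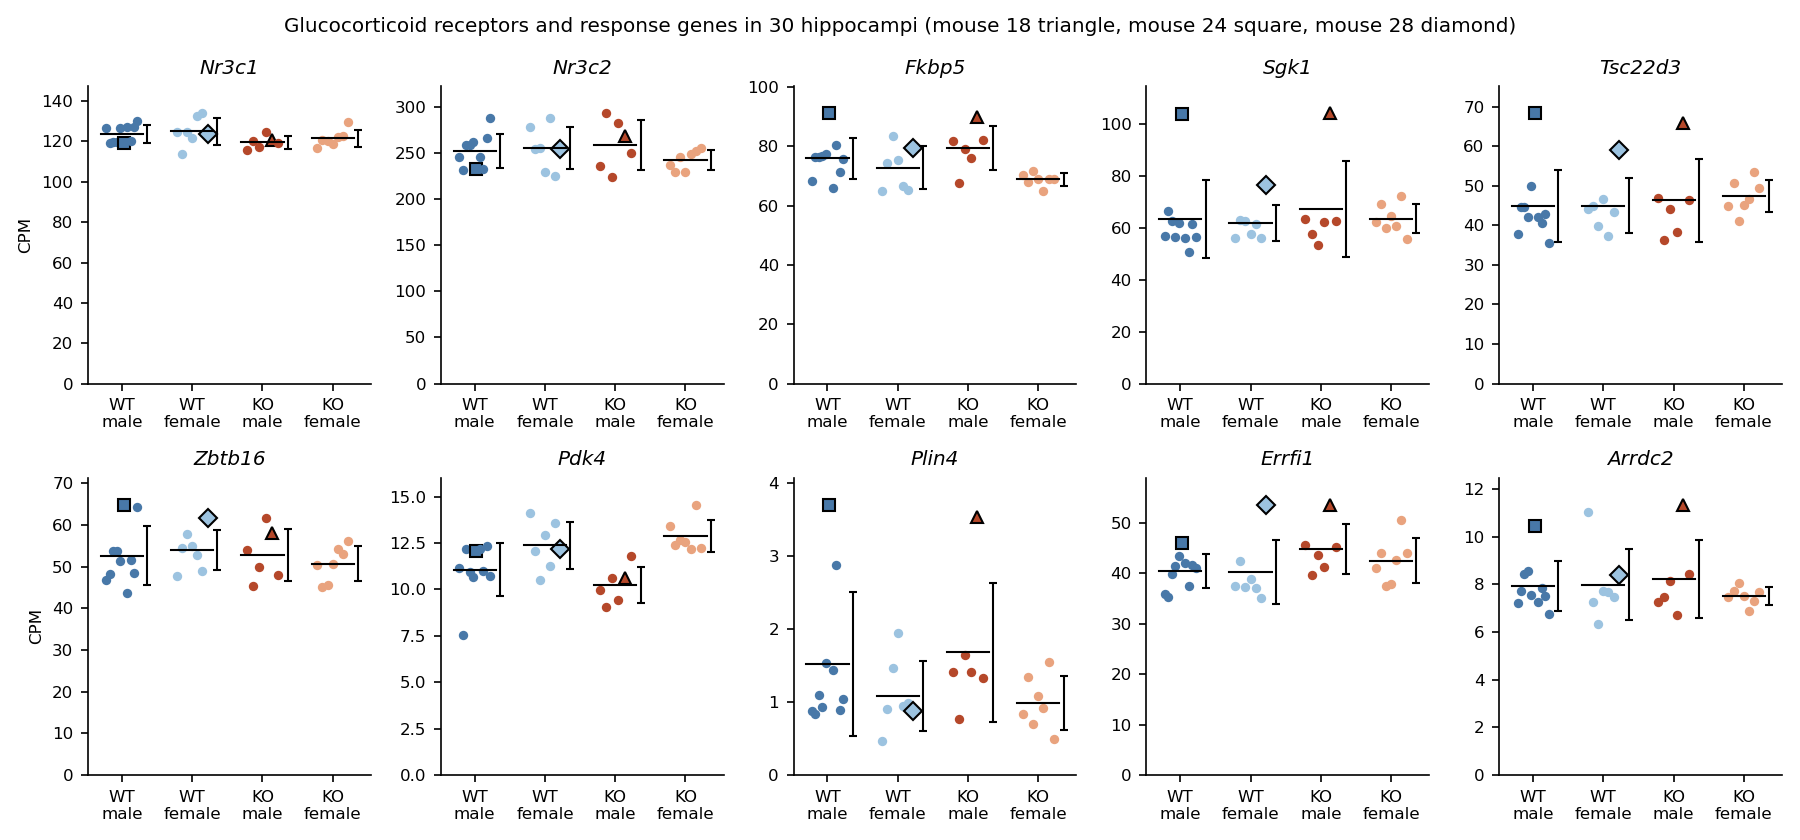
CPM (vertical axes, from 0) of the 10 genes in each of the 30 mice by genotype and sex; horizontal lines are group means and bars are SD. Mouse 18 (triangle) and mouse 24 (square) stand at 104 CPM for Sgk1, above the 50.9 to 76.4 CPM of the other 28 mice, while Nr3c1 stays between 114 and 134 CPM in all mice.

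Loss of TIMP2 was accompanied by little difference in these genes. Of the 10, 1 had an unadjusted p under 0.05 between TIMP2 KO and WT, the threshold used by the study, against 5.03% of all genes tested. After Benjamini-Hochberg adjustment over all genes, 0 of the 10 had an adjusted p under 0.05 in edgeR, against 0.0546% of all genes, and the median log2 fold change of the 10 was -0.02 against 0.0001 over all genes. With DESeq2, 2 of the 10 passed the unadjusted and 0 the adjusted threshold.

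Errfi1 (ENSMUSG00000028967, chromosome 4 of GRCm38 from 150853919 to 150868892, plus strand), whose product holds back EGF receptor signalling, was the gene that passed. Its level ranged from 37.4 to 53.5 CPM in TIMP2 KO mice with a median of 43.7, and from 35.0 to 53.6 in WT with a median of 39.8. The groups overlapped, and 10 of 13 TIMP2 KO mice lay above the WT median. The log2 fold change was 0.11 (SE 0.05, 95% interval 0.01 to 0.22; p = 0.0403, adjusted p = 0.980, edgeR), and the unadjusted p rose over 0.05 when any 1 of 12 of the mice was left out, up to 0.105 without mouse 18, a TIMP2 KO male.

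Nr3c1 (ENSMUSG00000024431, chromosome 18 from 39410545 to 39519421, minus strand), the glucocorticoid receptor, ranged from 116 to 130 CPM in TIMP2 KO mice with a median of 120, and from 114 to 134 in WT with a median of 125. The groups overlapped, and 12 of 13 TIMP2 KO mice lay below the WT median. The log2 fold change of -0.04 (SE 0.02) had p = 0.0536 and an adjusted p of 0.980 in edgeR, and the unadjusted p fell under 0.05 in DESeq2 (0.0432), with sex as a covariate (0.0434) and when any 1 of 9 of the mice was left out. Without mice 18 and 24, in which several response genes were highest, Nr3c1 passed the unadjusted threshold (0.0453) and Errfi1 did not (0.0573). Nr3c2 (ENSMUSG00000031618, chromosome 8 from 76899442 to 77245012, plus strand), the mineralocorticoid receptor, ranged from 224 to 294 CPM in TIMP2 KO and from 226 to 288 in WT, with medians of 249 and 255. Its log2 fold change was -0.02, with a 95% interval from -0.10 to 0.06.

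Fkbp5 (ENSMUSG00000024222, chromosome 17 from 28399094 to 28517527, minus strand), the receptor co-chaperone, ranged from 65.0 to 89.8 CPM in TIMP2 KO mice with a median of 70.5, and from 65.1 to 91.3 in WT with a median of 75.7. The log2 fold change was -0.02 (SE 0.05), and its 95% interval ran from -0.11 to 0.08. Sgk1 (ENSMUSG00000019970, chromosome 10 from 21882184 to 21999903, plus strand), a kinase that regulates ion channels and transporters, ranged from 53.3 to 104 CPM in TIMP2 KO and from 50.9 to 104 in WT, with medians of 62.5 and 61.5. Both ranges ended in 1 mouse far above the rest, and the log2 fold change was 0.06 (95% interval -0.11 to 0.23).

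Tsc22d3 (ENSMUSG00000031431, chromosome X from 140539528 to 140600659, minus strand) encodes GILZ, a leucine zipper protein known for anti-inflammatory actions of glucocorticoids. It ranged from 36.4 to 66.0 CPM in TIMP2 KO and from 35.6 to 68.4 in WT, with a log2 fold change of 0.06 (95% interval -0.09 to 0.22). The transcription factor Zbtb16 (ENSMUSG00000066687, chromosome 9 from 48654297 to 48836222, minus strand), also called PLZF, had a log2 fold change of -0.04 (-0.15 to 0.06). Pdk4 (ENSMUSG00000019577, chromosome 6 from 5483351 to 5496309, minus strand), a kinase that turns off pyruvate dehydrogenase, showed a mean of 11.6 CPM in both genotypes and a 95% interval of -0.13 to 0.13. Arrdc2 (ENSMUSG00000002910, chromosome 8 from 70835129 to 70839720, minus strand), an arrestin-domain gene, had -0.02 (-0.16 to 0.13). The lipid droplet gene Plin4 (ENSMUSG00000002831, chromosome 17 from 56100591 to 56109803, minus strand) had -0.03, with the widest interval of the 10, from -0.54 to 0.48. For these genes and Fkbp5, Sgk1 and Nr3c2 the unadjusted p was 0.412 or higher.

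**Figure D2:**
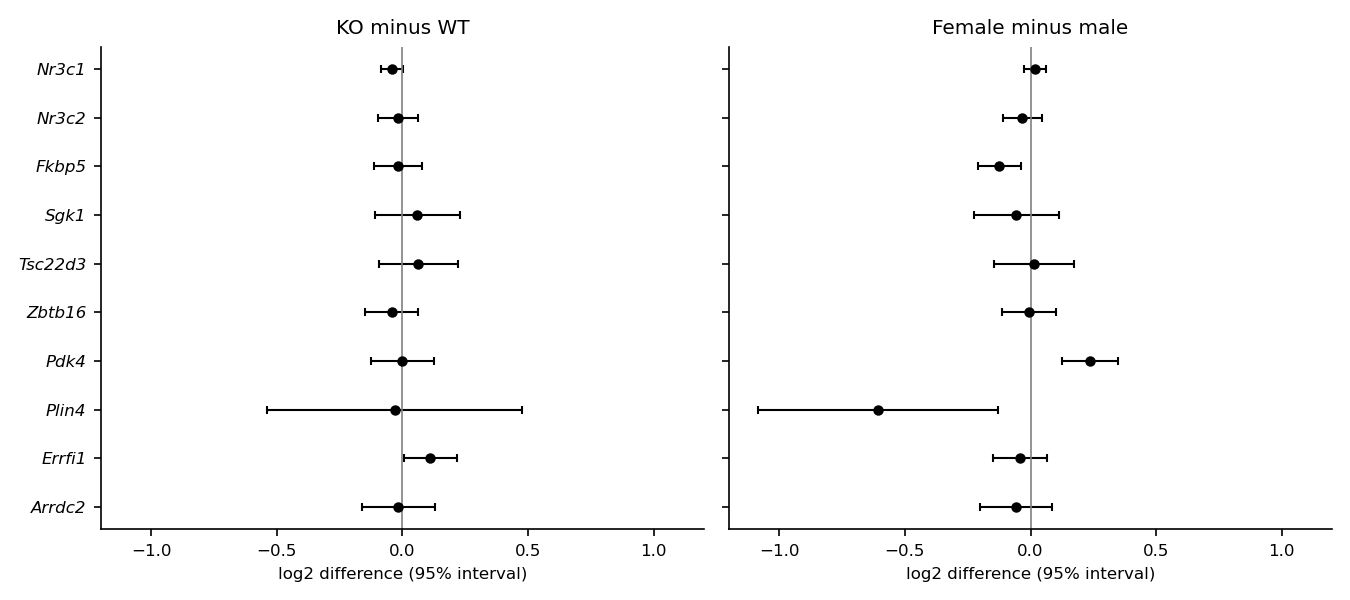
Log2 differences of the 10 genes, TIMP2 KO minus WT (left) and female minus male with genotype as a covariate (right), with 95% intervals from edgeR's fit across all genes. The interval excludes 0 for Errfi1 on the left, and for Pdk4, Fkbp5 and Plin4 on the right.

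Few other genes of the pathway passed the test between genotypes. Over all 16486 genes tested, 5.03% had an unadjusted p under 0.05, 407 with higher and 422 with lower levels in TIMP2 KO. Among 11 chaperones and cofactors of the receptors, 1 rose at an unadjusted p under 0.05 and 0 fell: Hsp90aa1, a heat shock protein that keeps the receptor ready for hormone, had a log2 fold change of 0.06 (SE 0.02; p = 0.00399, adjusted p = 0.827, edgeR). Of 9 genes for corticosteroid metabolism, transport and corticotropin-releasing hormone, 7 were tested and 0 passed, among them Hsd11b1, which regenerates active hormone inside cells, with a log2 fold change of 0.00 (SE 0.04), and Crhr1, a receptor for corticotropin-releasing hormone, with 0.05 (SE 0.06). Of 20 other glucocorticoid-induced genes, 19 were tested, 1 rose and 0 fell. The one that rose was Dusp1, a phosphatase that is also an immediate early gene (log2 fold change 0.42, SE 0.18; p = 0.0279, adjusted p = 0.952). Among 9 immediate early genes listed separately, 8 passed with higher levels in TIMP2 KO and the median log2 fold change was 0.42, with Fos at 0.75 (SE 0.32). None of the 9 passed after adjustment (adjusted p = 0.882 or higher, edgeR). The part of neuronal activation in the Dusp1 value was not tested. Of 13 clock genes 0 passed. Of 6 choroid plexus markers 3 were tested, and all 3 were higher in TIMP2 KO at an unadjusted p under 0.05; Ttr, a carrier of thyroid hormone, had a log2 fold change of 3.67 (SE 0.73; adjusted p = 0.0326, edgeR). Their summed level over 6 genes ran from 2.91 to 662 CPM in TIMP2 KO (median 7.84) and from 1.01 to 39.9 CPM in WT (median 6.35), so the groups overlapped. Of 7 hippocampal neuron markers 2 were lower at that threshold (Prox1 by a log2 value of -0.16 and Dsp by -0.21), of 7 endothelial markers 1 was lower (Slco1a4) and of 6 astrocyte markers 1 was higher (Gfap), with summed levels that overlapped between genotypes. None of the mural cell, oligodendrocyte, microglia, thalamus or red blood cell markers tested passed. Their part in the differences of the 10 genes was not tested.

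Female and male mice differed in 3 of the genes at the unadjusted threshold. With genotype as a covariate, 3 of the 10 had an unadjusted p under 0.05 between female and male mice, against 9.77% of all genes tested, and 0 of the 10 passed after adjustment, against 0.218%. Pdk4 ranged from 10.53 to 14.6 CPM in females with a median of 12.5, and from 7.53 to 12.3 in males with a median of 10.8. Of 14 females, 13 lay above the male median. The female minus male log2 difference was 0.24 (SE 0.05; p = 1.27e-04, adjusted p = 0.0550, edgeR), and in DESeq2 the adjusted p was 0.00725. Within genotypes it was 0.33 in TIMP2 KO mice (p = 9.76e-05) and 0.16 in WT mice (p = 0.0476).

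Fkbp5 ran the other way, from 65.0 to 83.5 CPM in females with a median of 69.0 and from 65.8 to 91.3 in males with a median of 76.5, and 2 of 14 females lay above the male median. The log2 difference was -0.13 (SE 0.04; p = 0.00548, adjusted p = 0.280). It was -0.21 within TIMP2 KO mice (p = 6.14e-04) and -0.06 within WT mice (p = 0.284). The 7 TIMP2 KO females were the most uniform group for Fkbp5, at 65.0 to 71.7 CPM, whereas the 6 TIMP2 KO males ranged from 67.7 to 89.8 CPM. Plin4 had medians of 0.933 CPM in females and 1.37 CPM in males, with 3 of 14 females above the male median and a log2 difference of -0.61 (SE 0.24; p = 0.0142, adjusted p = 0.389). Without mouse 18 the Plin4 difference was -0.44 (p = 0.0520), and without mice 18 and 24 it was -0.30 (p = 0.126). Fkbp5 and Pdk4 kept an unadjusted p under 0.05 without mice 18 and 24 (0.0227 and 1.35e-04), and Tsc22d3 then had a female minus male log2 difference of 0.12 (p = 0.0432).

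The difference between genotypes did not itself differ detectably by sex. For the interaction of sex and genotype, 0 of the 10 genes had an unadjusted p under 0.05, against 2.57% of all genes. No gene passed after adjustment in edgeR or DESeq2, and in DESeq2 the unadjusted count was also 0 of 10. The lowest p was that of Fkbp5 (0.0899), whose TIMP2 KO minus WT difference in females, minus that in males, was -0.14 on the log2 scale (95% interval -0.31 to 0.02), and it fell under 0.05 when mouse 4, 10, 23 or 24 was left out. For Pdk4 the p was 0.136, and 0.0221 without mouse 6.

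Across mice, 2 animals of different genotype stood above the others for the same genes. Mouse 18, a TIMP2 KO male, and mouse 24, a WT male, had 104.3 and 104.0 CPM of Sgk1, against 50.9 to 76.4 CPM in the other 28 mice. For Tsc22d3 they had 66.0 and 68.4 CPM against 35.6 to 59.1. For Fkbp5 they had 89.8 and 91.3 CPM against 65.0 to 83.5, and for Plin4 3.53 and 3.71 CPM against 0.472 to 2.88. These 4 genes put the same pair of mice first and second with no overlap with the rest. The share of all genes that do so was not computed. Mouse 18 was the highest of all mice for 10.4% of all genes tested and mouse 24 for 2.98%. Both mice were picked after the values were seen.

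Arrdc2 was highest in mouse 18 (11.4 CPM) and ranked 3 of 30 in mouse 24 (10.4 CPM), with up to 11.1 CPM elsewhere. Zbtb16 was highest in mouse 24 (64.9 CPM) and ranked 5 in mouse 18 (58.0 CPM). Errfi1 was highest in mouse 28, a WT female (53.6 CPM), which also ranked 3 for Sgk1 (76.4 CPM), Tsc22d3 (59.1 CPM) and Zbtb16 (61.6 CPM). Neither receptor stood apart in these mice: Nr3c1 was at 121, 119 and 124 CPM in mice 18, 24 and 28, and Nr3c2 at 269, 233 and 255 CPM, inside the range of the others. Pdk4 was likewise unremarkable, at 10.6, 12.0 and 12.2 CPM.

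Genes of the wider response list that were not chosen as members showed the pattern in part, and again no share of all genes was computed. Sdc4, a cell surface proteoglycan, was at 82.1 CPM in mouse 18 and 81.6 CPM in mouse 24 against at most 69.3 CPM in the other 28. Nfkbia, the inhibitor of NF-kappaB, was at 24.9 and 26.2 CPM against at most 21.8, and Hif3a, a hypoxia-inducible factor subunit, at 6.04 and 4.19 CPM against at most 3.84. Fam107a, a stress-responsive actin-associated gene, was at 503.5 and 493.9 CPM against at most 493.5. Others did not follow: Dusp1 was at 20.5 and 12.4 CPM within a range of 9.78 to 37.1, and Angptl4 and Nedd9 were in the lower part of their ranges in both mice.

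**Figure D3:**
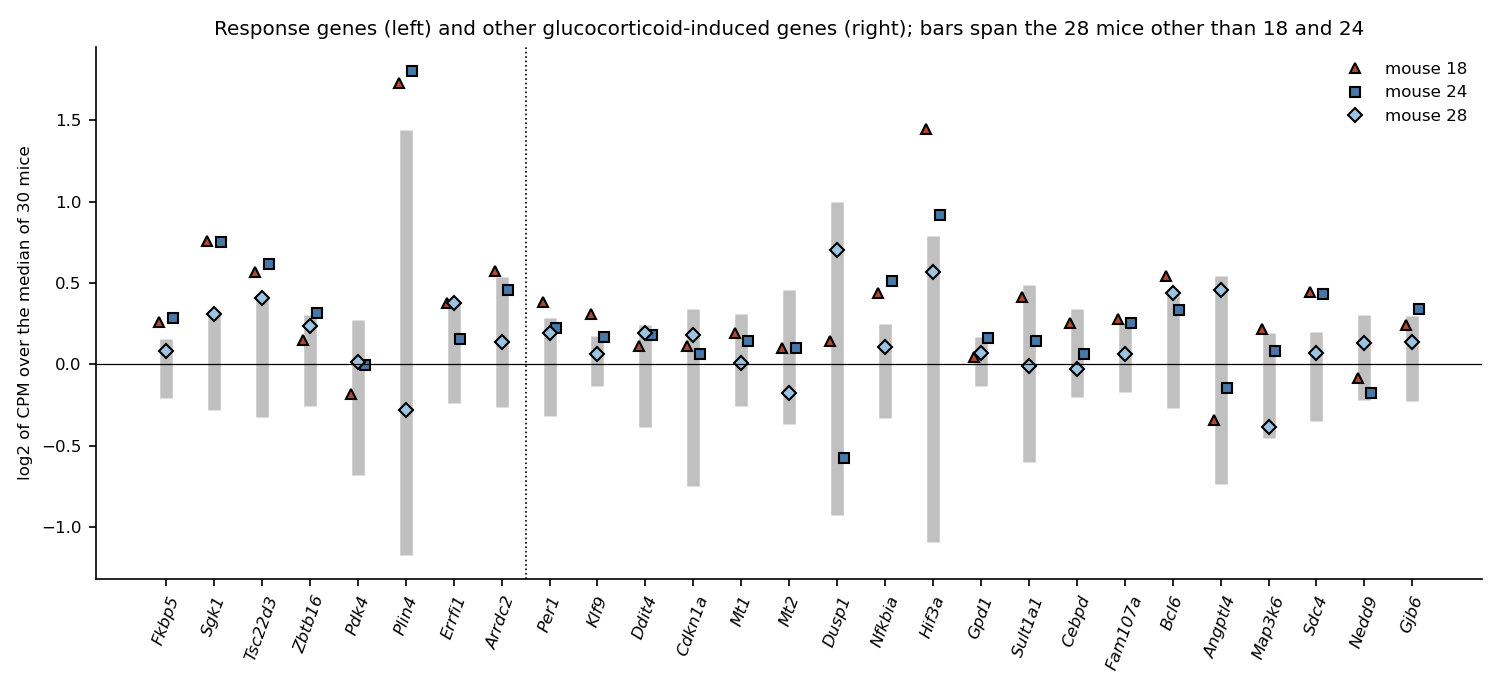
Log2 of CPM over the median of the 30 mice for the 8 response genes (left of the dotted line) and 19 other glucocorticoid-induced genes (right); grey bars span the 28 mice other than 18 and 24, and symbols are mice 18, 24 and 28. Mice 18 and 24 lie above the bar for Fkbp5, Sgk1, Tsc22d3 and Plin4, and for Sdc4, Nfkbia, Hif3a and Fam107a.

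Other measures of these mice were read beside these values. Mouse 18 had the highest summed level of 6 oligodendrocyte markers (4160 CPM, against at most 3738 CPM in WT mice), and mouse 24 had 3500 CPM. Mouse 18 also had the highest summed level of 7 hippocampal neuron markers (1051 CPM) and the lowest of 5 thalamus markers (102.6 CPM). It had 157.5 CPM of Wfs1 and 313 CPM of Neurod6, against at most 132 and 298 CPM in the 28 mice other than 18 and 24. For Calb2 it had 8.24 CPM against 19.8 to 39.6, but for Prkcd 36.1 CPM against 14.3 to 23.9. All else on both lists, and mouse 24 throughout, lay inside the range of those 28. The part of tissue composition was not tested. Mouse 18 was the highest of the 30 for 10.4% of all genes tested, mouse 24 for 2.98% and mouse 28 for 3.18%. Mouse 18 was highest for 6 of 13 clock genes and mouse 24 for 3, with Per2 and Ciart among them. Total counts ranked 2, 22 and 28 of 30 in mice 18, 24 and 28, and mitochondrial reads took 3.76%, 3.58% and 3.64% of counts within a range of 2.22% to 4.17% over all mice. Immediate early genes, summed over 9, were at 506 CPM in mouse 18 and 266 CPM in mouse 24, within the 220 to 738 CPM of all mice. Over the 30 mice, the group-centred mean of the oligodendrocyte markers had r = 0.333 with Fkbp5 and 0.394 with Sgk1 (permutation p = 0.117 and 0.0669), and that of the clock genes had 0.449 and 0.520 (permutation p = 0.0213 and 0.0192). Adjusted over 32 relations, these p-values were 0.136 or higher. Spearman's rho was 0.202 and 0.379 for the oligodendrocyte markers (permutation p = 0.322 and 0.0476) and 0.257 and 0.279 for the clock genes (permutation p = 0.183 and 0.154). Without mice 18 and 24, r was 0.211 and 0.226 for the oligodendrocyte markers and 0.206 and 0.0959 for the clock genes. The study's methods name the date of isolation or harvest as a source of variation, and whether mice 18 and 24 shared a date was not given in the sources used here, so the part of that date was not tested.

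The covariation was tested by entering the log2 CPM of Fkbp5 into the fit of every other gene beside the 4 sex and genotype groups. The slope then gives the log2 change of a gene for 1 log2 unit of Fkbp5 within groups. Of the 9 other members, 4 had a slope with an adjusted p under 0.05, all positive, against 0.594% of all 16485 genes tested (89 positive and 9 negative slopes). They were Plin4 (slope 3.92, SE 0.75; adjusted p = 0.00642, edgeR), Sgk1 (1.32, SE 0.28; 0.0145), Tsc22d3 (1.27, SE 0.27; 0.0145) and Zbtb16 (0.80, SE 0.19; 0.0411).

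The other 5 did not pass. Errfi1 had a slope of 0.62 (adjusted p = 0.204), Arrdc2 of 0.53 (0.541) and Pdk4 of -0.05 (0.969). The receptors had negative slopes, -0.21 for Nr3c1 (unadjusted p = 0.0263, adjusted p = 0.376) and -0.29 for Nr3c2 (0.537). Of the 19 other glucocorticoid-induced genes, 3 passed with positive slopes: Hif3a (3.48), Sdc4 (0.92) and Klf9 (0.56), a zinc-finger transcription factor of neurons. Of 7 hippocampal neuron markers 1 passed, which was Dsp, a desmosomal protein gene, with a slope of 1.66 (SE 0.34; adjusted p = 0.0138, edgeR).

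All 4 calls were lost without mouse 18 or mouse 24, and some were lost without other mice too. The call was lost on leaving out any 1 of 2 mice for Sgk1 and Plin4, any 1 of 4 for Tsc22d3 and any 1 of 17 of the 30 for Zbtb16. Without both mice 18 and 24, 0 of the 9 members had an adjusted p under 0.05, and 0% of all 16505 genes then tested did. Leaving out mouse 18 alone or mouse 24 alone also gave 0 of 9, and leaving out mouse 10, a TIMP2 KO male, or mouse 28 gave 2 of 9. The slopes kept their sign without mice 18 and 24 for the 4 genes, at 2.65 for Plin4 (unadjusted p = 0.00850), 0.66 for Zbtb16 (0.00843), 0.59 for Tsc22d3 (0.0394) and 0.37 for Sgk1 (0.112). At an unadjusted p under 0.05, Nr3c1 also kept its negative slope (-0.28, p = 0.0121). With the oligodendrocyte markers as a covariate 1 of 9 passed, which was Plin4, and the slopes were 3.88 for Plin4, 1.16 for Sgk1, 1.13 for Tsc22d3 and 0.76 for Zbtb16 (adjusted p = 0.0392, 0.0915, 0.0872 and 0.121). With endothelial or with choroid plexus markers as a covariate 4 of 9 passed.

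The same fit was made with each of the other members in the place of Fkbp5. With Sgk1, 4 of 9 other members passed (1.46% of all genes), and with Tsc22d3 5 of 9 did (1.35%). With Errfi1 2 of 9 passed (0.922%) and with Arrdc2 1 of 9 (0.0425%). No member passed with Zbtb16 (0.188% of all genes), Pdk4 (0.182%), Plin4 (0.224%), Nr3c1 (2.24%) or Nr3c2 (0%). In all, 16 of 90 ordered pairs passed, each with a positive slope.

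Without mice 18 and 24, 2 of the 90 ordered pairs passed, and both were the pair of Tsc22d3 and Errfi1. The slope of Errfi1 on Tsc22d3 was 0.66 (SE 0.12; adjusted p = 0.0132), against 0.0545% of all genes passing, and that of Tsc22d3 on Errfi1 was 0.83 (SE 0.14; adjusted p = 0.00392), against 0.139%. With Sgk1 and without these mice, 0% of all genes passed.

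**Figure D4:**
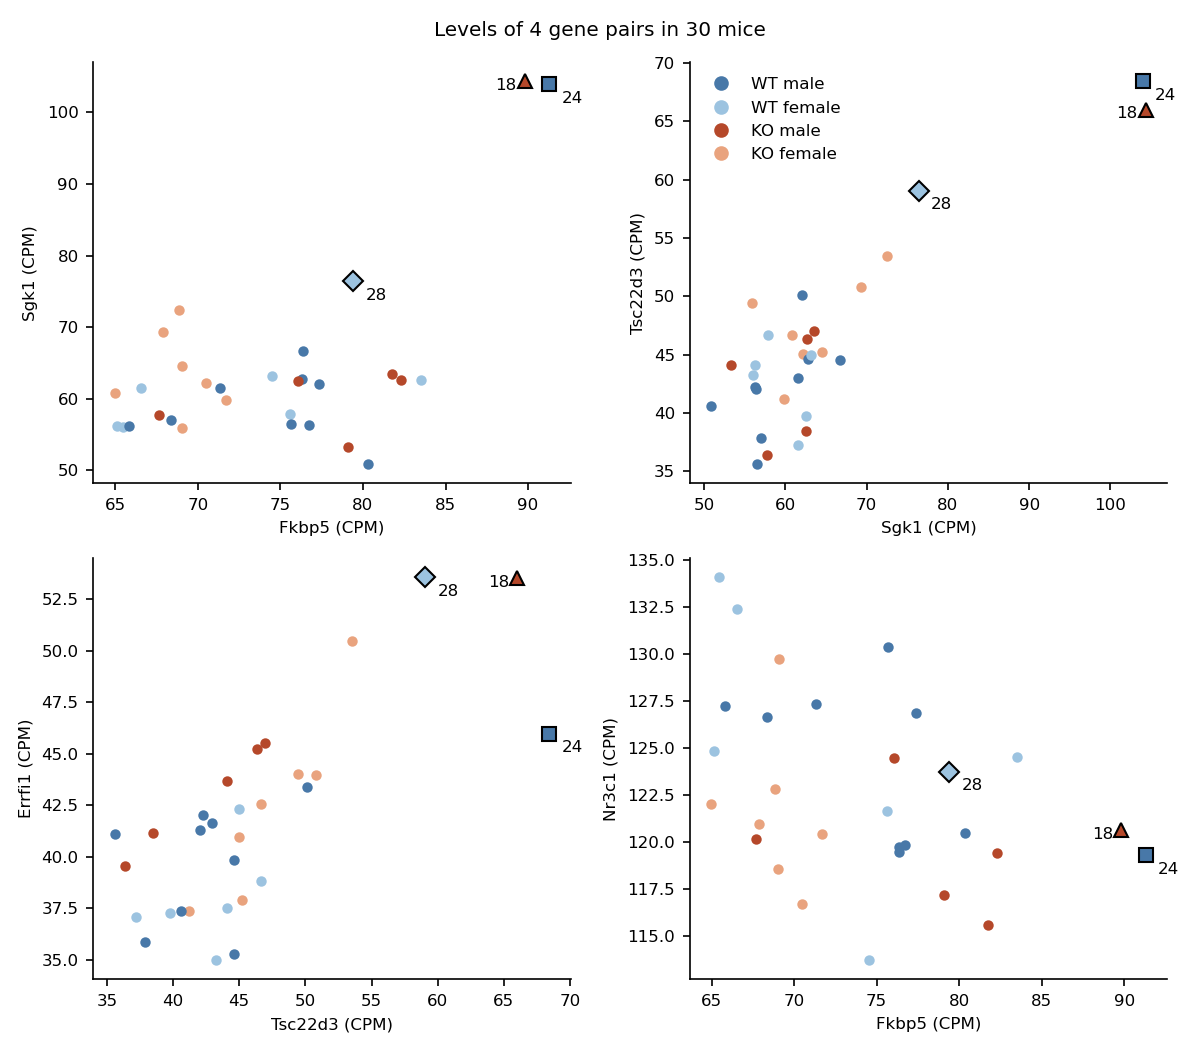
CPM of 4 pairs of genes in the 30 mice, coloured by group (linear axes that do not start at 0), with mice 18, 24 and 28 marked. Mice 18 and 24 lie apart at the upper right for Fkbp5 with Sgk1, whereas Tsc22d3 and Errfi1 rise together over the whole range of mice.

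Correlations of log2 CPM centred within the 4 groups gave the pairs one by one (45 pairs; permutation of mice within groups, 100000 draws). Sgk1 and Tsc22d3 had Pearson's r = 0.823 (permutation p = 8e-05, adjusted over the 45 pairs 0.00180) and Spearman's rho = 0.567 (permutation p = 0.00177, adjusted 0.0360). Mice 18 and 24 were also the 2 farthest from the median of Sgk1, and without them r was 0.584. Tsc22d3 and Errfi1 had r = 0.767 (permutation p = 2e-05, adjusted 9.00e-04) and rho = 0.689 (permutation p = 1e-04, adjusted 0.00450), and r = 0.745 without mice 18 and 24. Within the 4 groups this pair had r between 0.600 in WT males and 0.999 in TIMP2 KO males.

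Fkbp5 was less tied to the other response genes once ranks were used. Its r was 0.623 with Zbtb16, 0.616 with Plin4, 0.615 with Tsc22d3 and 0.603 with Sgk1 (permutation p between 6.3e-04 and 0.00236, adjusted 0.00709 to 0.0142), and its rho between 0.400 and 0.527 (permutation p between 0.00519 and 0.0364). After adjustment the rho with Zbtb16 had p = 0.0467 and those with the other 3 had p = 0.120 or higher. Without mice 10 and 24, the farthest for Fkbp5, r lay between 0.431 and 0.490. Within groups the 4 coefficients were positive in TIMP2 KO males, WT males and WT females (0.357 to 0.915) and negative in TIMP2 KO females (-0.43 to -0.12), the group in which Fkbp5 varied least; that difference was not tested.

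Fkbp5 and Nr3c1 went in opposite directions. Their r was -0.45 (permutation p = 0.0244, adjusted 0.0784) and their rho -0.57 (permutation p = 0.00240, adjusted 0.0360), the coefficient was negative in each of the 4 groups, and r was -0.46 without mice 18 and 24. The receptors themselves had r = 0.416 (permutation p = 0.0334, adjusted 0.0912) and rho = 0.519 (permutation p = 0.00501, adjusted 0.0467), and r = 0.687 without mice 9 and 23, the farthest for Nr3c1.

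Over the 28 pairs of response genes, 26 coefficients were positive with a median r of 0.421, and without mice 18 and 24 the median was 0.213 with 22 positive. Over the 16 pairs of a receptor with a response gene, 13 were negative with a median of -0.14. In all, 11 of 45 pairs had an adjusted permutation p under 0.05. These counts were not set against pairs of other genes. No pair with Pdk4 was among the 11.

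**Figure D5:**
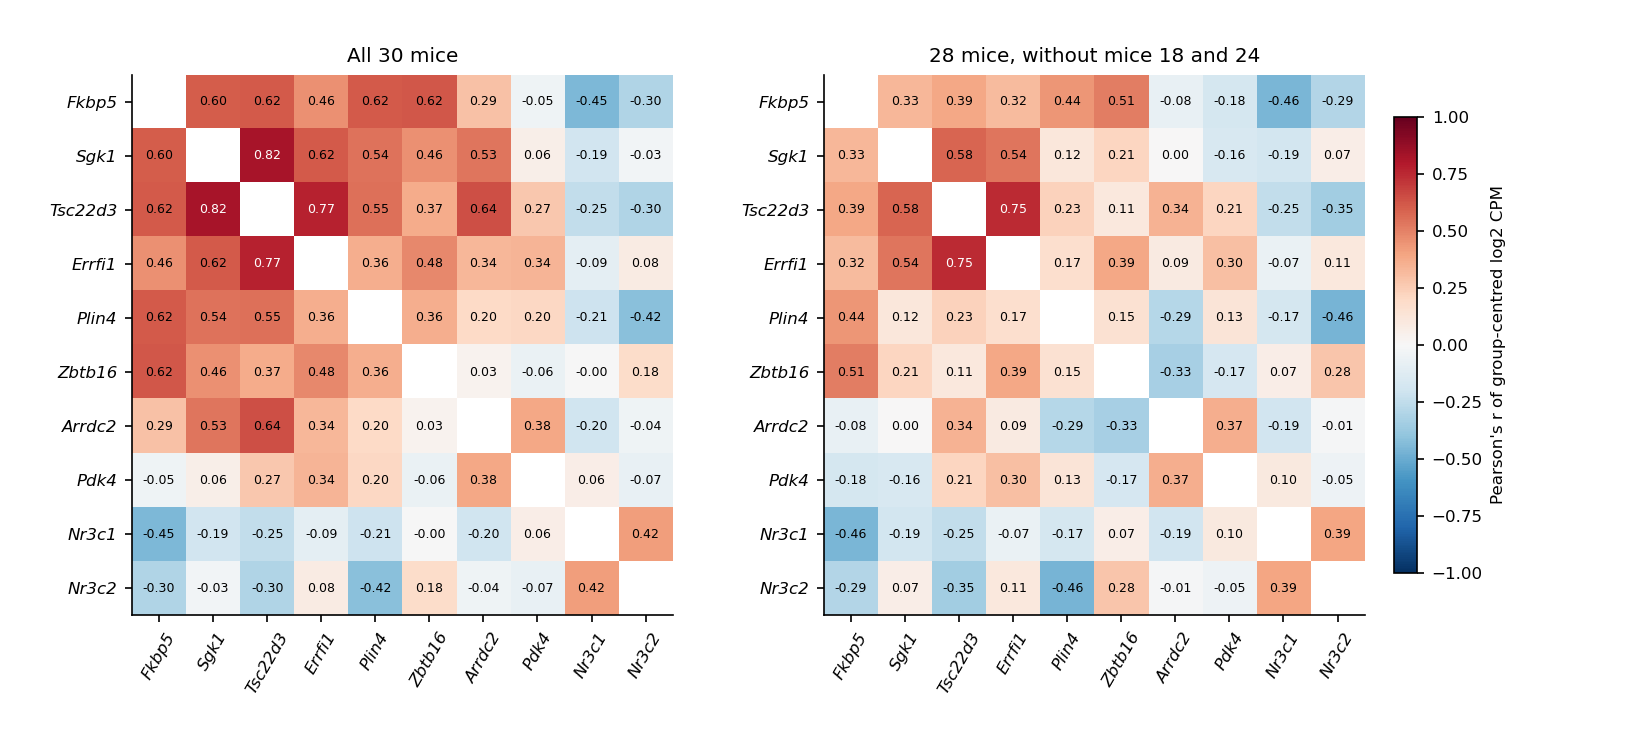
Pearson's r of group-centred log2 CPM for the 45 pairs of genes in all 30 mice (left) and without mice 18 and 24 (right), coloured from -1 (blue) to 1 (red). The block of Fkbp5, Sgk1, Tsc22d3, Errfi1 and Plin4 is paler on the right, while Tsc22d3 with Errfi1 goes from 0.77 to 0.75.

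Of the genes that are not members, the 10 whose levels were most like those of Fkbp5 held no gene of the wider response list. By group-centred r over the 30 mice, among genes with a mean of at least 1 CPM, the first 3 were Pkp2, a desmosomal plakophilin (0.805), the ubiquitin ligase Rnf19a (0.798) and the extracellular matrix gene Olfml2b (0.796), and the tenth was Mis18a (0.761). Without mice 18 and 24 these values were 0.754, 0.742, 0.721 and 0.734. Zbtb16, Plin4, Tsc22d3 and Sgk1 ranked 78, 83, 84 and 101 of 16485 genes by r with Fkbp5. By r with Sgk1, Tsc22d3 ranked 2.

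Markers of cell types and technical measures were set beside Fkbp5 and Sgk1 in 32 relations, of which 0 had an adjusted permutation p under 0.05. The highest for Fkbp5 was the mean of 7 hippocampal neuron markers (r = 0.591, permutation p = 0.00176, adjusted 0.0530, and rho = 0.425, permutation p = 0.0342, with r = 0.526 without mice 10 and 24). These markers differed: the slope on Fkbp5 was 1.66 for Dsp and 0.61 for Prox1 (adjusted p = 0.195, edgeR). The slopes of the other markers on the list lay between -0.05 and 0.20. The mean of the red blood cell markers had r = 0.398 with Fkbp5 (permutation p = 0.0304, adjusted 0.140). Its rho was 0.442 (permutation p = 0.0206), and its r was 0.527 without mice 18 and 24. With Sgk1 its r was 0.0506 (permutation p = 0.746). Of the 4 red blood cell markers tested, 0 had a slope on Fkbp5 with an adjusted p under 0.05 (edgeR). For Sgk1 the highest was the mean of the other glucocorticoid-induced genes (r = 0.596, permutation p = 0.00331, adjusted 0.0530, and rho = 0.393, permutation p = 0.0401). That r was 0.266 without mice 18 and 24. Total counts gave r = 0.00 with Fkbp5 and -0.09 with Sgk1, and immediate early genes gave 0.0443 and 0.0970 (permutation p 0.557 or higher for these 4).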

How the data were processed

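The libraries, 1 per mouse from 13 TIMP2 KO and 17 WT hippocampi, were poly(A)-selected and paired-end. Reads were trimmed (Trimmomatic 0.36), aligned to GRCm38 (STAR 2.5.2b) and counted per gene (featureCounts, Subread 1.5.2), per the submitters' processing notes; the authors deposited raw counts without normalization. The strand setting was not given in the sources used here, so reads of overlapping genes cannot be separated. All 30 columns matched a mouse. Symbols and positions came from GENCODE release M21 (49056 of 49315 identifiers).

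TMM normalization, filterByExpr and the quasi-likelihood test were run in edgeR 4.0.16 (R 4.3.3). TIMP2 KO and WT were compared with sexes pooled, as in the study, with p-values adjusted over all genes (Benjamini-Hochberg). Log2 CPM used a prior count of 2. The fits were tested on simulated data. The members, gene lists and named genes were chosen with earlier results of these data known. All 10 members are named. Other genes are those past a threshold or the 10 most like Fkbp5. The exceptions are Timp2, Hsd11b1, Crhr1, Arntl, Npas2, Clock, Flt1, Fam107a, Angptl4, Nedd9, Calb2, Prkcd, Wfs1 and Neurod6. Apart from Timp2, the check of the labels, these exceptions were chosen after their values were seen.

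Alternatives were DESeq2 1.42.0, RLE size factors, omission of the filter, a minimum of 10 counts per mouse, limma 3.58.1 voom with sample weights, log2 total counts, sex or marker lists as covariates, single sexes or genotypes, and each mouse left out. Leaving out mice 18 and 24 together, and the choice of mice 18, 24 and 28 and of several response genes described in them, followed inspection of the values. Controls were littermates, but litters are not in the labels, so the mice were fitted as independent and litter was not taken into account. Isolation and harvest dates, which the study's methods name as a batch effect, are not in the labels and could not be fitted.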

Additional observations from a re-analysis of the deposited data

Results flagged for a closer look

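Of 40 combinations of gene and group examined (10 genes in 4 sex and genotype groups), 5 held a mouse farther from the others than Dixon's 95% limit, where chance gives about 2. For Sgk1, mouse 18 stood at 6.71 log2 CPM against 5.74 to 5.99 in the other TIMP2 KO males. In WT males, mouse 24 stood at 6.70 against 5.67 to 6.06, and in WT females mouse 28 stood at 6.26 against 5.81 to 5.98. For Tsc22d3, mouse 24 stood at 6.10 log2 CPM against 5.16 to 5.65 in the other WT males. For Pdk4, mouse 6 was the lowest WT male, at 2.93 log2 CPM against 3.42 to 3.63.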

How the results depend on the processing

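In the comparison of TIMP2 KO with WT, 1 of the 10 members had an unadjusted p under 0.05. The count was 2 with DESeq2, with a minimum of 10 counts per mouse and with sex as a covariate, 0 in females alone, and from 0 to 2 with 1 mouse left out. Between females and males it was 3, and 1 in WT mice alone. For the interaction it was 0, and from 0 to 1 with 1 mouse left out. The covariation with Fkbp5 gave 4 of 9 members at an adjusted p under 0.05. It gave 2 with a minimum of 10 counts, which leaves out Plin4, 1 with limma voom, 1 with oligodendrocyte markers as a covariate, 0 in WT mice alone, 0 in TIMP2 KO mice alone and 0 without mice 18 and 24; with 1 mouse left out the range was from 0 to 4. The cause was not tested. The slopes of Plin4, Sgk1, Tsc22d3 and Zbtb16 were 3.87, 1.103, 1.096 and 0.77 with limma voom and 3.88, 1.16, 1.13 and 0.76 with oligodendrocyte markers, against 3.92, 1.32, 1.27 and 0.80. It gave 4 of 9 with DESeq2, without a filter and with total counts, endothelial or choroid plexus markers as a covariate, and 3 with RLE size factors and without the groups in the fit.

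Several values close to 0 changed sign. In males alone, the log2 fold change of TIMP2 KO against WT was 0.063 for Fkbp5, 0.0018 for Zbtb16, 0.14 for Plin4, 0.038 for Nr3c2 and 0.055 for Arrdc2. With sex as a covariate it was 0.017 for Plin4. For Pdk4 it was 0.0015 with DESeq2, 6.90e-05 with RLE size factors, 0.0021 without a filter, 0.0046 with limma voom, 0.0051 with log2 total counts as a covariate, 0.015 without mice 18 and 24 and 0.052 in females alone. With 1 mouse left out, the ranges that spanned 0 were -0.045 to 0.0024 for Fkbp5, -0.015 to 0.12 for Sgk1, -0.029 to 0.028 for Pdk4, -0.27 to 0.13 for Plin4 and -0.075 to 0.019 for Arrdc2. The slope of Pdk4 on Fkbp5 was 0.71 in TIMP2 KO mice alone, 0.0019 with endothelial markers as a covariate and from -0.21 to 0.080 with 1 mouse left out. That of Arrdc2 was -0.20 without mice 18 and 24. The slopes of Plin4, Sgk1, Tsc22d3 and Zbtb16 on Fkbp5 were positive with each mouse left out, at 3.45 to 4.49, 0.88 to 1.47, 0.94 to 1.53 and 0.67 to 0.85.

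No paired analysis was possible because the labels give no litter, pair or harvest date. Plin4 had 9 to 117 counts per mouse, with the lowest median of the 10 genes.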

Other observations

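Clock genes, which oscillate over the day and of which Per1 and Per2 are also known targets of the glucocorticoid receptor, were read beside Sgk1 in the fit across all genes. Of all 16485 genes, 1.46% had a slope on Sgk1 at an adjusted p under 0.05, 174 positive and 66 negative. Of 13 clock genes, 3 had a positive slope that passed: Ciart (0.73; adjusted p = 0.0337, edgeR), Per2 (0.45; 0.0379) and Nr1d2 (0.30; 0.0217). None had a negative slope that passed, and on Fkbp5 0 of 13 passed. Per2 stood at 35.97 CPM in mouse 18 and 30.6 CPM in mouse 24 against 18.7 to 29.7 CPM in the other 28 mice, Nr1d2 at 113.8 and 109.9 CPM against 78.3 to 103.8, and Ciart at 9.09 and 9.61 CPM against 4.36 to 8.78. Arntl, a gene of the positive arm of the clock, ranked 28 and 29 of 30 from the highest in these mice (28.9 and 27.8 CPM), and Npas2 ranked 30 and 27 (14.6 and 21.6 CPM). Clock, on the same list, was not low in them and ranked 15 and 6 (107.5 and 111.1 CPM). The slopes of Arntl, Npas2 and Clock on Sgk1 did not pass (adjusted p = 0.285, 0.0614 and 0.645, edgeR). With Sgk1 and without mice 18 and 24, 0 genes passed.

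Of the 19 other glucocorticoid-induced genes, 5 had a positive slope on Sgk1 that passed, against the same 1.46% of all genes: Sdc4 (0.51), Nfkbia (0.63), Bcl6 (0.54), Klf9 (0.24) and Per1 (0.39), with adjusted p between 7.16e-04 and 0.0457. The tight junction gene Cldn5 was the 1 of 7 endothelial markers to pass, with a negative slope (-0.40, adjusted p = 0.0420). It stood lowest of 30 in mouse 18 (27.9 CPM) and ranked 27 in mouse 24 (32.3 CPM). The endothelial marker Flt1 went the other way, with a slope of 0.29 (adjusted p = 0.100, edgeR). It stood at 79.1 CPM in mouse 18 and 71.6 CPM in mouse 24, against at most 69.7 CPM in the other 28 mice.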
